A study of Chlamydomonas reinhardtii with 8 samples.

Results

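A set of 27 genes, of 17693 in the count table, had less RNA in every library labelled dnmt1 than in every wild-type (WT) library of the green alga Chlamydomonas reinhardtii. A gene was taken in when its lowest value among the 4 WT libraries was at least 1.5 times its highest value among the 4 libraries labelled dnmt1, and its WT mean was at least 20 normalized counts, that is, counts divided by a factor for the sequencing yield of each library. Chloroplast- and mitochondrion-encoded genes, the mating-type region of chromosome 6 and the antenna genes Cre06.g283950 and Cre06.g284250 were left out by the rule, which removed 3 chloroplast genes that met both limits and no other gene. The members were thus chosen by their dnmt1-to-WT differences in all 8 libraries, and those differences are given below as a description, with no test. Tests are given for other contrasts, namely whether the difference from WT was of another size in the mating types, and whether the genes differed between mating types within a genotype. These tests use the same 8 values that chose the genes. The rule sets no limit on the spread within a genotype. At a given size of change, though, it is met more easily where the libraries of a genotype lie close together. The calls are therefore read as a description of the members and not as independent of the choice.

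The alga is single-celled and haploid, and its mating types, mt+ and mt-, are set by a region of chromosome 6. The 4 groups, each with 2 biological replicates, were dnmt1 mt+ and WT mt+, both of CC-5155 strains, and dnmt1 mt- and WT mt-, both of CC-5325 strains, so that a contrast of mating types is also one of strains. All were vegetative cells grown in acetate medium under constant light, and the genotype of the libraries labelled dnmt1 is given as a DNMT1 knockout. The allele, and whether 1 or several mutant clones were used, are not given in the sources used here. RNA was taken from whole cultures, so fewer cells with a transcript and less of it per cell cannot be told apart.

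DNMT1 enzymes are DNA methyltransferases that add a methyl group to cytosine, and in animals they copy the methylation pattern of the old DNA strand onto the new one after replication. Cytosine methylation at gene starts commonly goes with silence of a gene in animals and plants, whereas methylation inside gene bodies is found in many active genes. The locus that carries the symbol DMT1 in the hand-written symbol list, Cre10.g461750, had 248 and 205 normalized counts in dnmt1 mt+ against 443 and 442 in WT mt+, and 1322 and 1422 in dnmt1 mt- against 455 and 388 in WT mt-. It was lower than WT in mt+ and higher in mt-. Since the allele is not given, RNA at this locus cannot check the label either way, and every direction below rests on the labels. Library totals ran from 12204374 to 21115955 counts. The WT mt+ replicates stood farthest apart: over the genes with a WT mean of at least 20, the median absolute log2 ratio of the replicates was 0.23 in WT mt+ and 0.12 to 0.13 in the other groups, while over the 27 members it was 0.17 in WT mt+ and 0.14 to 0.20 in the others.

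None of the 27 genes carries a symbol in the files or in the reference table at hand, so they are named by locus ID (the files' suffix left off) and no role is given to any of them. None was among the 61 loci of the symbol list, which holds antenna, photosystem, low-CO2, iron and copper, heat shock, nitrogen and other well-known genes. Of these 61 loci, 55 had enough counts to be tested and 0 were called lower in both mating types, against a background of 2.93% of tested genes (edgeR's quasi-likelihood test, Benjamini-Hochberg adjusted p under 0.05 in each). DESeq2 also called 0 of them lower in both, and 1 was lower in both at an unadjusted p under 0.05. By the same rule turned round, 58 genes were higher in every library labelled dnmt1.

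Within the set, what was left of the WT level ranged widely. The mean of the dnmt1 mt+ libraries was 10.1% to 59.1% of the WT mt+ mean, with a median of 44.1%, and that of the dnmt1 mt- libraries was 15.02% to 60.3% of the WT mt- mean, with a median of 45.1%. The widest gap between genotypes was that of Cre04.g220850, whose lowest WT value was 3.48 times its highest value in a library labelled dnmt1. It had 75.8 and 68.7 normalized counts in dnmt1 mt+ against 444 and 461 in WT mt+, and 60.1 and 73.4 in dnmt1 mt- against 270.2 and 264 in WT mt-. Its libraries labelled dnmt1 lay close together in both mating types, while its WT libraries lay far above and apart by mating type. The log2 fold changes, ± their standard errors from edgeR, were -2.63 ± 0.16 in mt+ and -1.99 ± 0.16 in mt-. All changes below are on this log2 scale, dnmt1 over WT unless stated otherwise.

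**Figure D1:**
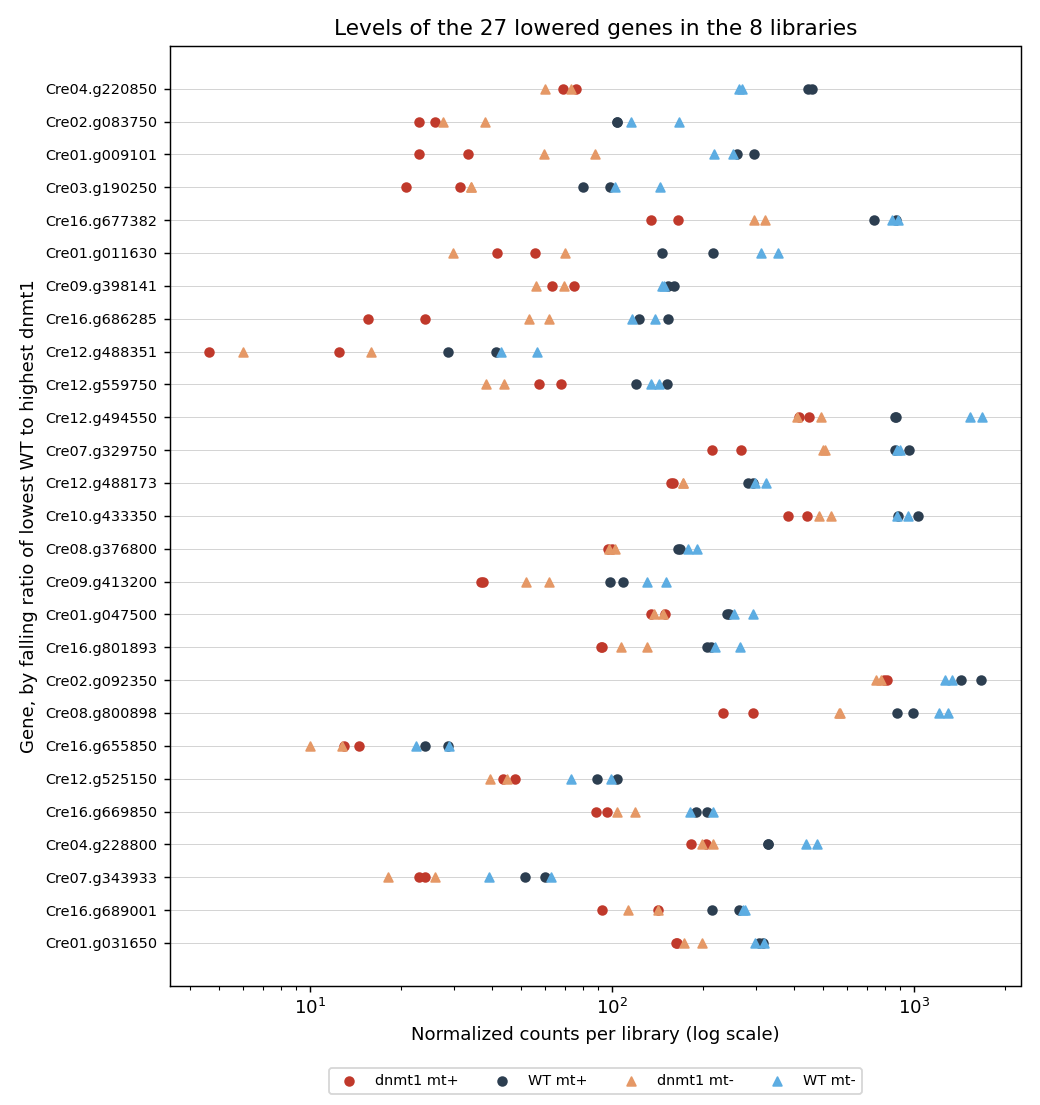
Normalized counts (log scale) of the 27 genes in each of the 8 libraries, with 1 point per library, from the widest gap between genotypes at the top to the narrowest at the bottom. In every row the libraries labelled dnmt1 lie left of the WT libraries, as the choice of the genes requires, and the gap runs from 3.48 times for Cre04.g220850 to 1.504 times for Cre01.g031650.

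Next in order of the gap came Cre02.g083750, which had 25.9 and 22.9 normalized counts in dnmt1 mt+ against 104 and 104 in WT mt+, and 38.0 and 27.7 in dnmt1 mt- against 116 and 167 in WT mt-. Cre03.g190250 had 31.4 and 20.8 normalized counts in dnmt1 mt+ against 80.1 and 98.6 in WT mt+, and 34.0 and 34.0 in dnmt1 mt- against 145 and 103 in WT mt-. Both genes were left at about the same share of WT in the mating types, 23.4% of the WT mean in mt+ and 23.3% in mt- for Cre02.g083750 and 29.2% of the WT mean in mt+ and 27.5% in mt- for Cre03.g190250. Cre12.g488351 was of this kind too, with 4.62 and 12.5 normalized counts in dnmt1 mt+ against 41.4 and 28.6 in WT mt+, and 6.01 and 15.95 in dnmt1 mt- against 42.8 and 56.6 in WT mt-. It rests on few reads, with raw counts of 5 and 12 in the dnmt1 mt+ libraries and of 6 and 15 in those of dnmt1 mt-. By the absolute log2 ratio, its replicates labelled dnmt1 lay farther apart than those of any other member in both mating types. Over the set, the raw counts of single libraries ran from 5 to 858 in those labelled dnmt1 and from 18 to 2388 in WT.

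At the edge of the rule, the members with the narrowest gaps were Cre07.g343933, Cre16.g689001 and Cre01.g031650, at 1.510, 1.509 and 1.504 times. Just outside were Cre17.g747497, Cre01.g064727 and Cre01.g048102, at 1.496, 1.495 and 1.488 times, the first of which had a lowest WT value of 165 and a highest value labelled dnmt1 of 111 normalized counts. The limit therefore cuts through a continuous run of genes: 6 genes passed at a gap of 2 times, and 108 where the lowest WT value had to exceed the highest value labelled dnmt1 by only 25%. Within mt+ alone 330 genes met the rule and within mt- alone 680, and 65 met it in each mating type taken separately. That is 19.7% of the mt+ list and 9.56% of the mt- list. The shares of all genes at that level that met each rule were not computed, so the overlap is given as a count only. The 27 are those of the 65 in which the lowest WT library of either mating type also exceeded the highest library labelled dnmt1 of the other by 1.5 times.

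In edgeR's test 26 of the 27 were called lower in mt+ and 26 in mt-, where 8.83% and 11.6% of all 15263 tested genes were called lower. These counts follow from the choice of the genes and say nothing further about them. The median log2 fold change of the members was -1.16 in mt+ and -1.14 in mt-, against medians within 0.01 of 0 over all tested genes. The member without a call in either mating type was Cre16.g655850, which had 12.9 and 14.6 normalized counts in dnmt1 mt+ against 24.02 and 28.6 in WT mt+, and 10.01 and 12.8 in dnmt1 mt- against 28.8 and 22.4 in WT mt-.

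Whether the members were lowered by the same amount in both mating types was tested with the difference of the log2 fold changes, mt+ minus mt-. Of 27 members, 6 were called (22.2%), 5 with a larger drop in mt+ and 1 with a larger drop in mt-. Over all tested genes 13.8% were called, 7.00% with the lower value in mt+ and 6.81% with the higher. By point value alone the set was evenly divided, with 14 members lower by more in mt+ and 13 by more in mt-, and the median difference was -0.05, against -0.02 over all tested genes. The rule asks that all libraries of the genotypes stand apart, which favours genes with large changes and little spread between replicates, so the members' share is not comparable in a strict sense with that of all tested genes.

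**Figure D2:**
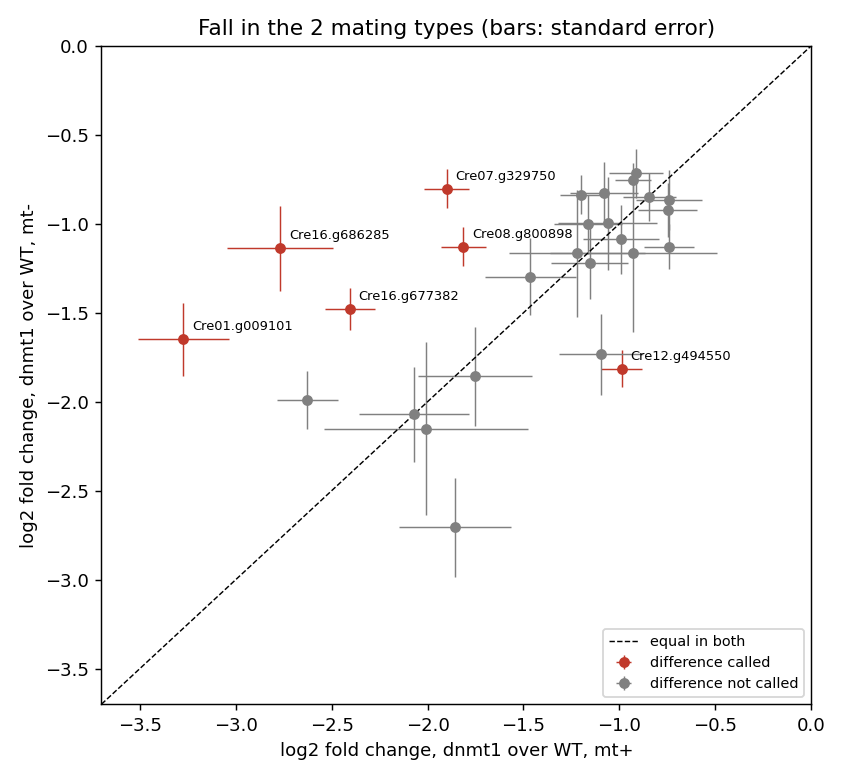
Log2 fold change (dnmt1 over WT) of each of the 27 genes in mt+ (x axis) and in mt- (y axis), with bars of 1 standard error and a dashed line where both are equal. Of the 6 genes called for a difference, in red, 5 lie above the line, with the larger drop in mt+, and Cre12.g494550 lies below it.

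The largest difference was that of Cre16.g686285. It had 24.04 and 15.6 normalized counts in dnmt1 mt+ against 123 and 153 in WT mt+, and 62.1 and 53.2 in dnmt1 mt- against 139 and 116 in WT mt-. Its WT libraries overlapped between the mating types, and both dnmt1 mt+ libraries lay below both dnmt1 mt- libraries. The log2 fold changes were -2.77 ± 0.28 in mt+ and -1.14 ± 0.24 in mt-, a difference of -1.63 ± 0.37 (edgeR, Benjamini-Hochberg adjusted p = 0.00837). Without dnmt1 mt+ replicate 2 this call was lost (edgeR, adjusted p = 0.0721).

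Cre01.g009101 was left at the smallest share of WT in mt+, with 10.1% of the WT mean in mt+ and 31.6% in mt-. It had 33.3 and 22.9 normalized counts in dnmt1 mt+ against 260.2 and 294 in WT mt+, and 88.1 and 59.6 in dnmt1 mt- against 251 and 217 in WT mt-. Both WT mt+ libraries lay above both WT mt- libraries, without a call (0.26 ± 0.18, mt+ over mt-, edgeR, Benjamini-Hochberg adjusted p = 0.330), and both dnmt1 mt+ libraries lay below both dnmt1 mt- libraries. The difference of the log2 fold changes was -1.62 ± 0.32 (edgeR, Benjamini-Hochberg adjusted p = 0.00319).

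The other members with a larger drop in mt+ had more reads. Cre07.g329750 had 268 and 214 normalized counts in dnmt1 mt+ against 963 and 867 in WT mt+, and 500.5 and 508 in dnmt1 mt- against 895 and 879.9 in WT mt-. Cre16.g677382 had 135 and 166 normalized counts in dnmt1 mt+ against 873 and 739 in WT mt+, and 320.3 and 296 in dnmt1 mt- against 886 and 846 in WT mt-. In both genes WT did not separate the mating types, while the dnmt1 mt+ libraries stood well below the dnmt1 mt- libraries. Their differences were -1.10 ± 0.16 for Cre07.g329750 and -0.93 ± 0.18 for Cre16.g677382 (edgeR, Benjamini-Hochberg adjusted p = 0.000255 and 0.00227).

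Cre08.g800898, which has no match in the older RefSeq v5.5 gene set, differed between the mating types in WT as well. It had 293 and 232 normalized counts in dnmt1 mt+ against 879 and 991 in WT mt+, and 569 and 565 in dnmt1 mt- against 1212 and 1289.9 in WT mt-. It was thus lower in mt+ than in mt- in both genotypes, and by more in the libraries labelled dnmt1. Its difference was -0.69 ± 0.16 (edgeR, Benjamini-Hochberg adjusted p = 0.00948), and it lost its call when replicate 1 of WT mt- was left out (edgeR, adjusted p = 0.0696) or replicate 2 of dnmt1 mt+ (edgeR, adjusted p = 0.0960).

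The member with the larger drop in mt- was Cre12.g494550. It had 417 and 449.8 normalized counts in dnmt1 mt+ against 871 and 867 in WT mt+, and 492 and 409 in dnmt1 mt- against 1676 and 1526 in WT mt-. Here the libraries labelled dnmt1 of the mating types overlapped, and it was WT mt- that stood above WT mt+. The difference of the log2 fold changes was 0.83 ± 0.15 (edgeR, Benjamini-Hochberg adjusted p = 0.00140).

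The mating types were then compared within each genotype, as mt+ over mt-. Among the libraries labelled dnmt1, 5 of 27 members were called (18.5%), against 22.0% of all tested genes. All 5 were lower in dnmt1 mt+, where 11.4% of tested genes were (none was called higher, against 10.7%; DESeq2 called 0 higher, and 1 was higher at an unadjusted p under 0.05), and they are the 5 genes named above with a larger drop in mt+. Their log2 values, dnmt1 mt+ over dnmt1 mt-, ran from -1.50 ± 0.30 for Cre16.g686285 to -1.02 ± 0.14 for Cre16.g677382. These comparisons share the dnmt1 libraries with the test of the difference, so the calls are not separate evidence.

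**Figure D3:**
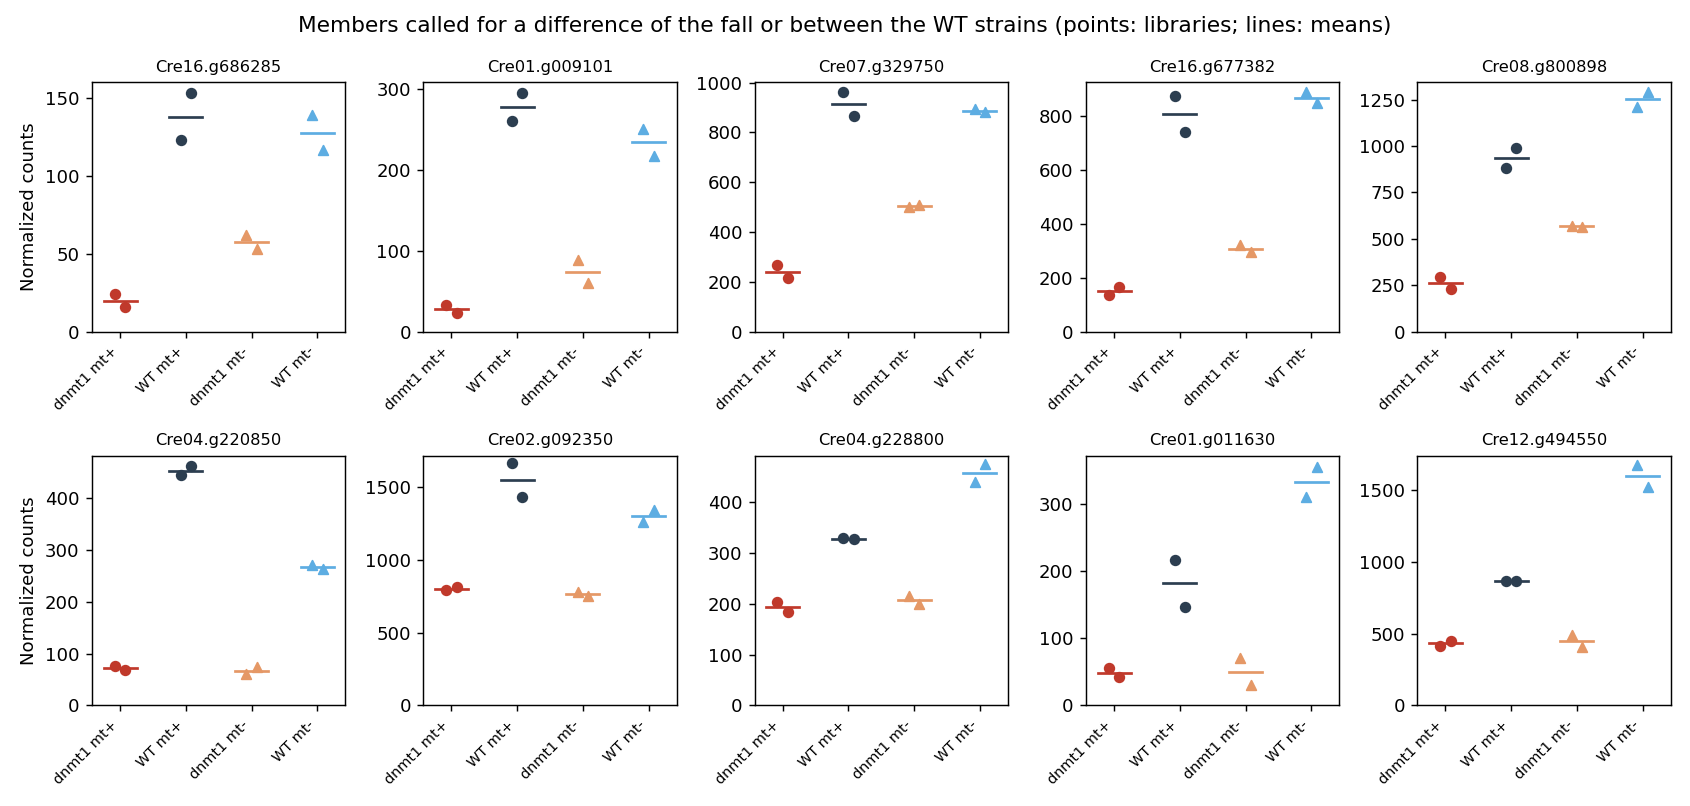
Normalized counts of the 10 members called for a difference of the drop or between the mating types in WT, with 1 point per library and a line at the group mean, each panel from 0 on its own scale. In the first 4 panels of the upper row the WT groups were not called apart and dnmt1 mt+ lies below dnmt1 mt-. In the lower row the groups labelled dnmt1 were not called apart and the WT groups were. The WT log2 values, mt+ over mt-, of Cre01.g009101 in the upper row and Cre02.g092350 in the lower row were nearly equal, 0.26 and 0.27.

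In WT, 6 of 27 members were called between the mating types (22.2%), close to the 21.5% of all tested genes. Of these 2 were higher in WT mt+ and 4 lower, against 10.6% and 10.9% of all tested genes. Higher in WT mt+ was Cre04.g220850, the gene with the widest gap (0.78 ± 0.14, edgeR, Benjamini-Hochberg adjusted p = 0.00105). Cre02.g092350 was called in the same direction by a small margin (0.27 ± 0.09, adjusted p = 0.0477 in edgeR), and lost its call with DESeq2 (adjusted p = 0.112), with library size scaling (0.106) and in most other settings. Lower in WT mt+ were Cre12.g494550 (-0.87 ± 0.10), Cre01.g011630 (-0.87 ± 0.24), Cre04.g228800 (-0.46 ± 0.12) and Cre08.g800898 (-0.40 ± 0.11). Without WT mt- replicate 1 or without WT mt- replicate 2, only Cre04.g220850 and Cre12.g494550 were still called, 2 of the 6.

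Of the 6 genes, 5 were not called between the mating types among the libraries labelled dnmt1, where their log2 values, mt+ over mt-, lay between -0.08 ± 0.13 for Cre04.g228800 and 0.14 ± 0.19 for Cre04.g220850. Cre04.g228800 had 204 and 183 normalized counts in dnmt1 mt+ against 329.6 and 327 in WT mt+, and 215 and 199 in dnmt1 mt- against 439 and 476 in WT mt-. Cre01.g011630 had 55.5 and 41.6 normalized counts in dnmt1 mt+ against 216 and 147 in WT mt+, and 70.1 and 29.8 in dnmt1 mt- against 310.2 and 355 in WT mt-. In both, the libraries labelled dnmt1 overlapped between the mating types and the WT libraries did not. A missing call does not show equal levels, and the difference of the drops was called in 1 of these 5, Cre12.g494550, and not in Cre04.g220850, Cre01.g011630, Cre04.g228800 or Cre02.g092350 (edgeR, Benjamini-Hochberg adjusted p = 0.0837, 0.199, 0.184 and 0.420). For Cre01.g011630 the difference was called once replicate 1 of WT mt+ was left out (edgeR, adjusted p = 0.0102) or replicate 1 of dnmt1 mt- (edgeR, adjusted p = 0.0329). Cre02.g092350 had 793 and 812 normalized counts in dnmt1 mt+ against 1667 and 1433 in WT mt+, and 779.7 and 749 in dnmt1 mt- against 1262 and 1339 in WT mt-, and its difference was called without WT mt+ replicate 2 (edgeR, adjusted p = 0.0462).

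The other 17 members were called in none of these 3 tests. Their dnmt1 means were 23.4% to 59.1% of WT in mt+ and 22.1% to 60.3% in mt-, and their differences of log2 fold changes lay between -0.36 and 0.64. The largest of these was that of Cre12.g559750, with 57.3 and 67.7 normalized counts in dnmt1 mt+ against 152 and 119.8 in WT mt+, and 44.0 and 38.3 in dnmt1 mt- against 135 and 143 in WT mt-. Its dnmt1 libraries separated the mating types and its WT libraries did not, in the direction opposite to the 5 genes above, without a call (difference 0.64 ± 0.32, edgeR, Benjamini-Hochberg adjusted p = 0.211). At the other end, Cre10.g433350 had 382 and 441 normalized counts in dnmt1 mt+ against 1030.1 and 882 in WT mt+, and 533 and 485 in dnmt1 mt- against 954 and 878 in WT mt-. Its difference of -0.36 ± 0.16 was not called (edgeR, adjusted p = 0.147) but was without WT mt+ replicate 2 (edgeR, adjusted p = 0.00658).

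Some of the 17, given next, had differences of the log2 fold changes between -0.20 for Cre01.g031650 and 0.17 for Cre01.g047500. Cre12.g488173 had 157 and 159 normalized counts in dnmt1 mt+ against 292 and 283 in WT mt+, and 171 and 171 in dnmt1 mt- against 323 and 298 in WT mt-. Cre08.g376800 had 97.1 and 99.9 normalized counts in dnmt1 mt+ against 165 and 168 in WT mt+, and 98.1 and 102 in dnmt1 mt- against 178 and 191 in WT mt-. In both genes the replicates labelled dnmt1 lay close together within each mating type. Cre01.g047500 had 135 and 149.9 normalized counts in dnmt1 mt+ against 244 and 239.7 in WT mt+, and 147 and 137 in dnmt1 mt- against 253 and 293 in WT mt-, and Cre09.g398141 had 74.9 and 63.5 normalized counts in dnmt1 mt+ against 160.1 and 153 in WT mt+, and 56.1 and 69.1 in dnmt1 mt- against 146 and 148 in WT mt-. Cre01.g031650, the member closest to the limit, had 165 and 162 normalized counts in dnmt1 mt+ against 307 and 316 in WT mt+, and 173 and 198 in dnmt1 mt- against 298 and 318 in WT mt-. In Cre12.g488173 and Cre01.g031650 both dnmt1 mt+ libraries lay below both dnmt1 mt- libraries.

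Others of the 17 also had a lower dnmt1 level in mt+ without a call. Cre09.g413200 had 37.0 and 37.5 normalized counts in dnmt1 mt+ against 98.7 and 109 in WT mt+, and 52.0 and 61.7 in dnmt1 mt- against 151 and 130.3 in WT mt-. Both of its mt+ groups lay below the mt- group of the same genotype, by log2 values of -0.59 ± 0.25 in the libraries labelled dnmt1 and -0.42 ± 0.20 in WT. Cre16.g801893, the other member without a match in RefSeq v5.5, had 92.5 and 91.6 normalized counts in dnmt1 mt+ against 212 and 206 in WT mt+, and 130.1 and 107 in dnmt1 mt- against 219 and 265 in WT mt-. Cre16.g669850 had 96.1 and 88.5 normalized counts in dnmt1 mt+ against 207 and 189.9 in WT mt+, and 104 and 119 in dnmt1 mt- against 216 and 182 in WT mt-, and its WT libraries overlapped between the mating types. The remaining members of the 17 were Cre12.g525150, with log2 fold changes of -1.06 ± 0.26 in mt+ and -0.997 ± 0.26 in mt-, Cre16.g689001, with -0.99 ± 0.20 in mt+ and -1.09 ± 0.19 in mt-, and Cre07.g343933, with -1.22 ± 0.35 in mt+ and -1.17 ± 0.36 in mt-.

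Over the whole set, 13 members had both dnmt1 mt+ libraries below both dnmt1 mt- libraries and 3 had them above. Over all tested genes the shares were 34.2% and 31.4%. In WT, 13 members had both mt+ libraries below both mt- libraries and 4 had them above, against 29.9% and 28.1% of all tested genes.

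Gene IDs and positions, which the choice did not use beyond the regions left out, were compared next, as a description. Only 2 of the 27 IDs, or 7.41%, have a number starting with 8, and they are the 2 members without a match in RefSeq v5.5; the share is close to the 6.05% among the 13960 genes with a WT mean of at least 20 outside the excluded groups. Among the 58 genes of the reversed rule, 29 have such an ID, which is 50.0%. That rule asks for a mean of at least 20 in the libraries labelled dnmt1, so the 6.05% is not its background. The share over all genes at that level was not computed. By the chromosome in the ID, 6 members lie on chromosome 16 (22.2%, against 7.60% of the 13960 genes), 5 on chromosome 12 (18.5%, against 10.1%) and 4 on chromosome 1 (14.8%, against 7.63%). Chromosomes 5, 6, 11, 13, 14, 15 and 17 hold none, and the other chromosomes hold 1 or 2 each.

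Of the 27 members, 25 have a place in the order of genes of the RefSeq v5.5 assembly, which is older than the annotation of the files, so that the order may differ there and no coordinates are given. On chromosome 16, Cre16.g677382, Cre16.g686285, Cre16.g689001 and Cre16.g669850 lie within a stretch of 93 genes, 25, 15 and 52 places apart. The first 2 of these are among the 5 genes with a larger drop in mt+, and the other 2 are not. Between them, 68 other tested genes of the stretch were called lower in 14.7% of cases in mt+, in 16.2% in mt- and in 8.82% in both, where the background is 8.83%, 11.6% and 2.93%; the stretch was picked after the members' places were seen. On chromosome 12, Cre12.g488351 and Cre12.g488173 lie 3 places apart, and the tested gene between them, Cre12.g488250, was not called (log2 fold changes of -0.34 ± 0.15 in mt+ and -0.26 ± 0.15 in mt-).

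Genes next to the members were mostly not lowered with them. Within 5 places on either side lay 197 other tested genes, of which 18 were called lower and 16 higher in mt+, and 26 lower and 27 higher in mt- (all tested genes: 9.27% higher in mt+ and 11.9% higher in mt-). The shares called lower, 9.14% in mt+ and 13.2% in mt-, are near the background of 8.83% and 11.6%, and 8 genes (4.06%) were called lower in both against 2.93%. The median log2 fold change of the 197 genes was 0.01 in mt+ and -0.03 in mt-. Of the 41 tested genes directly beside a member, 1 was called lower in both mating types (2.44%, near the 2.93% of all tested genes). In mt+ 4 of the 41 were called lower and 4 higher, and in mt- 6 lower and 5 higher. The gene called lower in both was Cre02.g083800, beside Cre02.g083750, with log2 fold changes of -1.004 ± 0.096 in mt+ and -0.39 ± 0.10 in mt-. Beside Cre01.g011630, with log2 fold changes of -1.86 ± 0.29 in mt+ and -2.70 ± 0.28 in mt-, Cre01.g011600 was called higher in both (0.38 ± 0.10 in mt+ and 0.28 ± 0.09 in mt-). So was Cre04.g228750 beside Cre04.g228800 (0.62 ± 0.12 in mt+ and 0.59 ± 0.12 in mt-). The share of all tested genes called higher in both mating types was not computed.

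**Figure D4:**
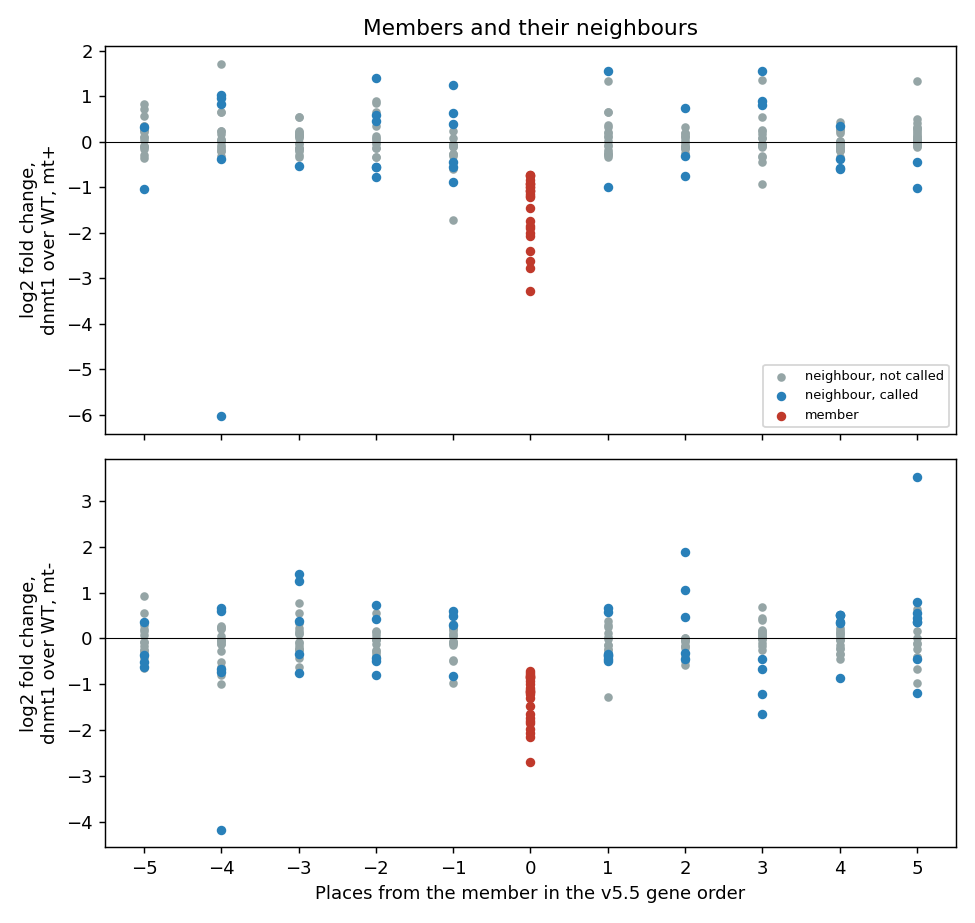
Log2 fold change (dnmt1 over WT) in mt+ (upper panel) and mt- (lower panel) of 25 members, at place 0, and of the other tested genes up to 5 places away in the RefSeq v5.5 gene order; blue points passed an adjusted p under 0.05. Most neighbours lie near 0 at every distance, and the lowest neighbour in both panels is Cre16.g684861, 4 places before Cre16.g686285.

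The neighbours that stand out were picked after their values were seen. Cre16.g684861 had 0 and 0 raw counts in dnmt1 mt+ against 10 and 4 in WT mt+, and 1 and 1 in dnmt1 mt- against 28 and 21 in WT mt-. Its gap between genotypes was 3.47 times, and with a WT mean of 14.8 normalized counts it missed the set by level alone. Its fold change rests on 0 and 1 counts per library labelled dnmt1, so how far it fell is poorly known. Cre07.g343850, 2 places before Cre07.g343933, was called lower in both mating types (log2 fold changes of -0.78 ± 0.12 in mt+ and -0.79 ± 0.12 in mt-) at a gap of 1.36 times. On the far side of Cre16.g686285 from Cre16.g684861, Cre16.g688550 was called lower in both, with log2 fold changes of -0.61 ± 0.11 in mt+ and -0.87 ± 0.11 in mt-. Near other members, Cre01.g047265, 5 places before Cre01.g047500, was called lower in both (-1.04 ± 0.18 in mt+ and -0.63 ± 0.19 in mt-). Cre04.g220800, Cre16.g656100 and Cre16.g688450 were also called lower in both, by smaller amounts.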

How the data were processed

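The authors deposited a table of raw counts per gene and a table of signal, the same counts divided by 1 DESeq2 size factor per library (0.749 to 1.42, as computed from both tables). The submitters' processing notes name STAR 2.7.6, Trim Galore 2.6, featureCounts, Picard and DESeq2; roles and genome build are not given in the sources used here, and gene IDs carry a CC-4532 v6.1 suffix. The set was chosen on the second table, and counts were used for every test. Levels are per gene and not per length, so they are not compared between genes. Overlapping or near-identical genes may share reads, and strand handling is not given.

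Genes kept by filterByExpr (15263) were scaled by TMM and fitted in edgeR 4.0.16 with glmQLFit (1 mean for each of the 4 groups, 4 residual degrees of freedom, R 4.3.3). The 2-sided glmQLFTest was run for each contrast, with p-values adjusted by Benjamini-Hochberg over the whole table and calls made under 0.05. A standard error is the log2 value divided by the square root of F, and restates the test. With 27 members, all were named. The members and lists were chosen with earlier results of these data known; the neighbour and chromosome counts were added after the data were seen. Gene order came from RefSeq v5.5, which 15386 IDs matched. Of 8 libraries none was left out. Scripts were tested on simulated counts. Alternatives were DESeq2 1.42.0, other scalings, no filter, the replicate number as a block, 2 groups alone, other limits of the rule and leaving out each library. Counts of reads without molecular identifiers are not independent molecules, so depth bounds only counting error. Figures used matplotlib 3.10.9.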

Additional observations from a re-analysis of the deposited data

Results flagged for a closer look

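In edgeR's test of the difference itself, 6 of 27 members were called (22.2%), against 13.8% of all tested genes. The differences of the log2 fold changes, mt+ minus mt-, were -1.63 for Cre16.g686285, -1.62 for Cre01.g009101, -1.10 for Cre07.g329750, -0.93 for Cre16.g677382, -0.69 for Cre08.g800898 and 0.83 for Cre12.g494550. Leaving out 1 library ended the call of Cre16.g686285 (edgeR, adjusted p = 0.0721 without dnmt1 mt+ replicate 2) and of Cre08.g800898 (edgeR, adjusted p = 0.0960 when that same library was left out, and 0.0696 when replicate 1 of WT mt- was). The same 8 libraries chose the members. Each mating type was a strain of its own, so the 2 cannot be told apart in these values. The locus of the DMT1 symbol, lower than WT in mt+ and higher in mt-, moved with the mating type as well, and its part in these differences was not tested.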

How the results depend on the processing

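The number of members depended on the limits of the rule: it was 108 where WT had to exceed dnmt1 by 25% and 6 at a gap of 2 times, against 27, and 28 and 25 at a WT mean of 10 and 50. On TMM-scaled CPM it was 24, since Cre12.g525150, Cre16.g689001 and Cre01.g031650 had gaps of 1.498, 1.495 and 1.490 times there. Leaving out 1 library loosens the rule by construction and gave 30 to 55 members, 55 and 51 of them without WT mt+ replicate 1 or 2, with all 27 among them.

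For the difference between the mating types, 6 members were called with all libraries and 4 to 8 with 1 library left out, 4 to 6 of them among the original 6; 6 were called with the replicate block, DESeq2, both other scalings and no filter. In WT the 6 calls became 2 to 6 with 1 library left out. Among the libraries labelled dnmt1 the 5 calls stayed at 5 or 6. The counts called lower were 20 to 26 in mt+ and 23 to 27 in mt- with 1 library left out. Over all alternatives, the values of single members that were called with the main settings numbered 232 for the difference and the mating-type contrasts, of which 21 lost their call, and 727 for dnmt1 over WT, of which 19 did; none of these changed direction. Of the values not called at first, 7 and 2 gained a call. Same-numbered replicates deviated together weakly at most (correlations of -0.048 to 0.149 between groups across 15263 genes). With 2 replicates per group, this cannot decide whether the numbers pair the samples. The replicate block left the counts of members called at 26, 26, 6, 6 and 5. Over all genes the block called 3025 instead of 2763 in mt+, 3895 instead of 3594 in mt- and 2359 instead of 2109 for the difference. It also called 3597 instead of 3280 in WT and 3620 instead of 3363 in the libraries labelled dnmt1.

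Over all genes, fits to 2 groups alone called 1550 instead of 2763 in mt+, 5674 instead of 3594 in mt-, 1775 instead of 3280 in WT and 5230 instead of 3363 in the libraries labelled dnmt1. With 1 library left out these counts ran from 1312 to 4179 in mt+, 1602 to 5683 in mt-, 1093 to 4349 for the difference (2109 in all), 1302 to 4874 in WT and 1464 to 5318 in the libraries labelled dnmt1. Library size scaling changed the share of the called genes, not of all tested genes, that were higher. It was 33.1% instead of 50.6% in mt-, 64.4% instead of 49.3% for the difference and 37.9% instead of 49.2% in WT. Raw counts of members were as low as 5 in a library, and no detection limit was computed for them.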
